A study of Canis lupus familiaris with 42 samples.

Results

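The arrays described here measured RNA from spontaneous sarcomas of dogs that had been given no treatment. They are the 21 arrays of a 42-array series whose title and treatment label mark a sample as taken before the first hyperthermia session. The other arrays, taken after that session, served only to choose which probe set stands for a gene and were not otherwise analysed here. The series speaks of 22 tumours, and 21 of them have an array before treatment in these data.

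All of the samples form 1 group, untreated sarcoma tissue of Canis lupus familiaris, with total RNA from tissue that went straight into RNAlater. The labels give no histological subtype, site, grade, breed, age or sex, and nothing in them ties a tumour to a dog, so it is not known that the samples are independent, and p-values measure only the spread between these samples. The tumours are called 1 to 21, and the numbers are names with no order. With no groups to compare, the spread over tumours is a description, and part of it may be technical. In tissue of mixed cells, fewer cells of a type cannot be told apart from less RNA per cell.

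Soft tissue sarcomas arise from connective tissue lineages, and in dogs the name covers tumours that resemble fibroblasts, vessel wall cells, nerve sheath cells, fat or muscle. A bulk sample also carries the RNA of vessels, immune cells and any skin or muscle that was taken with it. A difference between tumours in bulk RNA can come from either source.

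Levels of mesenchymal genes were described first. VIM, the intermediate filament vimentin of mesenchymal cells, had a lowest level of 13.23, a median of 14.02 and a highest of 14.24 on the log2 scale. COL1A1, a chain of type I collagen, ran from 11.88 in tumour 18 over a median of 13.16 to 14.34 in tumour 13. Both lay above 7.62, the upper quartile of the gene means, in all 21 tumours. Other mesenchymal cells in a bulk sample can also carry this RNA, so these levels do not test the label of sarcoma. KRT1, a keratin of the upper epidermis, had a median of 4.86 and reached 13.50 in tumour 15 and 8.62 in the next highest.

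Some arrays stood apart from the rest, and the SDs, the co-variation within lists and the tests with marker genes were also computed without them. Tumours 4, 13, 15 and 17 had a median Pearson r to the other tumours, over all named genes, of 0.912, 0.921, 0.874 and 0.919. The other 17 tumours lay between 0.955 and 0.971. The first principal component of the levels carried 28.4% of the variance and the second 12.3%. In tumour 15, 1091 of 15115 genes lay at least 2-fold above the median tumour and 1410 at least 2-fold below it, against 105 and 25 genes in tumour 9. The actin and GAPDH controls, whose 3′ minus 5′ log2 level is a sign of RNA integrity, ran from 0.18 in tumour 4 to 1.69 in tumour 13, with 1.29 in tumour 17, 0.76 in tumour 15 and a median of 0.76. Tumours 4, 13 and 17 thus held the lowest value and the 2 highest. The part of RNA quality in what sets these tumours apart was not tested.

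The poly-A controls, bacterial transcripts that are added before labelling, divided the arrays in another way. They had a level between 6.43 and 7.30 in 9 arrays and between 3.20 and 4.36 in the other 12, called spiked and unspiked here. No label names a batch. All of the tumours that stood apart were on unspiked arrays. By limma, 3203 of 42924 probe sets differed between spiked and unspiked arrays at an adjusted p under 0.05, which is 7.46%, with 1235 higher and 1968 lower on the spiked arrays. TEK, the angiopoietin receptor of endothelium, was higher on the spiked arrays by 1.57 ± 0.382 (SE, limma adjusted p = 0.0164). STMN2, MDM2, CDK1 and MX1, which are described in detail here, differed by -0.03, -0.12, -0.13 and 0.17 and did not pass the test.

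Most genes differed little between tumours. The median SD over the 21 tumours was 0.33 on the log2 scale, with quartiles of 0.24 and 0.50. An SD of at least 1 was found for 748 of 15115 genes, or 4.95%, and an SD of at least 2 for 40. Without tumours 4, 13, 15 and 17, 361 genes had an SD of at least 1. Of the 748, 348 had their highest level and 276 their lowest level in one of those 4 tumours. Leaving out a single tumour brought 343 of the 748 under 1.

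The 8 flattest genes with a mean level above the upper quartile had SDs between 0.11 and 0.14. RPL32, a protein of the large ribosomal subunit, stayed between 12.72 and 13.32, with an SD of 0.13. UQCRH, a subunit of respiratory complex III, stayed between 11.97 and 12.63, with an SD of 0.14. RBM14, an RNA-binding protein, had the smallest SD of the 8 genes taken by this rule, 0.11, with levels from 7.66 to 8.13.

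The gene that differed most was STMN2, a stathmin that regulates microtubules in neurons. Its lowest level was 3.63 in tumour 8, its median 5.94 and its highest 12.78 in tumour 19, with an SD of 3.29. The levels split at their widest gap, between 6.65 and 8.28, into 13 lower and 8 higher tumours, so high STMN2 was not the mark of 1 tumour. Tumours 2, 5 and 11 also had high levels, of 11.83, 11.35 and 12.41. The SD was 3.26 without the tumours that stood apart and 3.37 after the means of spiked and unspiked arrays were removed, and a second probe set of the gene followed the first with r = 0.98.

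Several other genes of the same rank were also spread over many tumours. PI3, the elastase inhibitor elafin, ran from 4.10 in tumour 17 over a median of 11.14 to 12.997 in tumour 18. MYOC, the secreted glycoprotein myocilin, ran from 4.24 in tumour 4 over 8.42 to 12.65 in tumour 16. RFPL4B ran from 3.34 in tumour 15 over 7.34 to 11.17 in tumour 14. Their SDs were 2.89, 2.70 and 2.70, and 2.57, 2.32 and 2.27 without the tumours that stood apart.

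Some of the other genes of the list are known from matrix, tendon or fat. LUM, the collagen-binding proteoglycan lumican, ran from 4.32 in tumour 1 over 9.25 to 12.98 in tumour 13, with an SD of 2.57. THBS4, a thrombospondin of tendon and muscle matrix, ran from 4.57 in tumour 19 over 7.88 to 12.28 in tumour 21, with an SD of 2.48. TNMD, the tendon marker tenomodulin, ran from 3.01 in tumour 14 over 7.94 to 11.25 in tumour 1, with an SD of 2.24. The highest tumours of these genes were different ones. FBN2, a fibrillin of elastic microfibrils, was highest in tumour 7 at 11.68 and in tumour 17 at 10.79, against a median of 5.86. FABP4, the fatty acid carrier of adipocytes, ran from 3.20 in tumour 4 over 8.33 to 11.11 in tumour 10, and tumour 1 was also low, at 3.21. CDO1, an enzyme of cysteine breakdown, had a median of 10.64 and was 3.80 in tumour 1, where the next lowest tumour was at 7.35, and its SD fell from 2.14 to 1.54 without tumour 1.

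Secreted inhibitors of growth factor signalling were a further group among the 30 most variable genes. SFRP2, which binds Wnt ligands, ran from 5.17 in tumour 4 over 10.75 to 13.42 in tumour 14. SFRP4, of the same family, ran from 3.67 in tumour 1 over 6.48 to 10.97 in tumour 4. HHIP, which binds hedgehog ligands, had a median of 10.03 and fell to 3.04 in tumour 17 and 4.35 in the next lowest tumour. The 2 Wnt inhibitors therefore had opposite extremes in tumour 4. SOSTDC1, an antagonist of BMP and Wnt signals, ran from 4.51 in tumour 5 over 6.87 to 10.999 in tumour 16, with an SD of 2.32 that was 2.31 without the tumours that stood apart.

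Genes of inflammation and nerve signalling were also in the list. SAA1, an acute phase protein, had a median of 5.68 and was 12.88 in tumour 15 and 12.02 in the next highest tumour, and its SD fell from 2.62 to 1.12 without the tumours that stood apart. CXCL10, an interferon-induced chemokine, ran from 3.82 in tumour 7 over 5.67 to 11.87 in tumour 4, and its SD fell from 2.13 to 1.11. In both genes, therefore, the tumours that stood apart carried much of the spread. NPY, a neuropeptide, had a median of 4.64 and was 11.29 in tumour 7 and 8.47 in the next highest tumour, and its SD was 2.20 with those tumours and 2.25 without them.

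**Figure D1:**
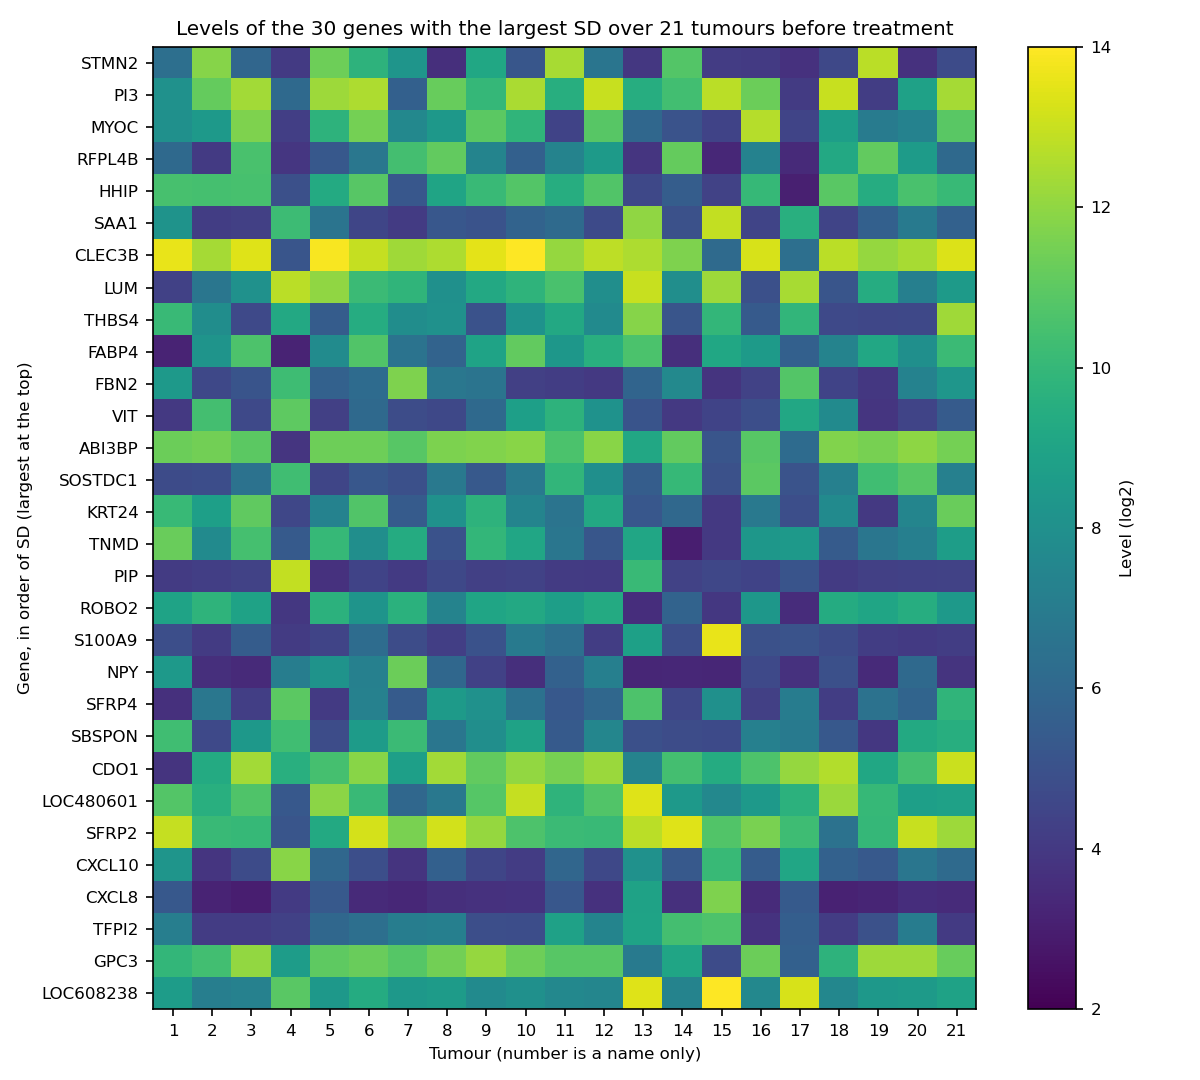
Log2 levels of the 30 genes with the largest SD (rows, STMN2 at the top) in each of the 21 tumours before treatment (columns). STMN2 is high in several tumours, while PIP, S100A9 and CXCL8 are high in 1 or a few, and CLEC3B and ABI3BP are low in a few.

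For part of the list the spread came from the tumours that stood apart. ABI3BP, a matrix protein, had a median of 11.34 and levels of 3.87 in tumour 4 and 5.18 in the next lowest, and its SD fell from 2.33 to 0.40 without those tumours. PIP, a secreted protein of apocrine glands, had a median of 4.36 and reached 12.91 in tumour 4 and 10.15 in tumour 13, and its SD fell from 2.23 to 0.21. CLEC3B, the plasminogen-binding protein tetranectin, had a median of 12.54 and was 5.15 in tumour 4, and its SD fell from 2.58 to 0.68. Of the 30 genes, 24 had their highest or lowest level in one of these tumours. The border of the list was not sharp: GPC3 and LOC608238 were the last genes inside it, with SDs of 2.104 and 2.091, and TSPAN8 and IL13RA2 the first outside, with 2.087 and 2.080. Of the 24 genes with several probe sets, 21 had another probe set that followed the first with r of at least 0.7.

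The median absolute deviation, which 1 or 2 extreme tumours hardly move, brought 10 further genes forward. MMP1, a collagenase, ran from 4.09 in tumour 13 over 6.82 to 11.88 in tumour 15. MEOX2, a homeobox factor of muscle and vessels, ran from 3.62 in tumour 5 over 6.52 to 8.77 in tumour 4. ADAMDEC1, a secreted metalloprotease, ran from 4.38 in tumour 4 over 7.66 to 10.22 in tumour 6. In MEOX2 and ADAMDEC1 no tumour stood far from the next, while tumour 15 was 2.20 above the next in MMP1. IL13RA2, a decoy receptor of interleukin 13, ran from 4.88 in tumour 15 over 9.44 to 11.35 in tumour 21.

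The genes were then grouped by how they moved over tumours, without use of any list. The 300 genes with the largest SD gave 9 clusters of at least 5 genes, with 155 genes in all. These clusters are a description of the genes that formed them. The largest, with 45 genes, was led by ABCA8, F2RL2, ROBO2, GHR and BMPER and lay below the median tumour in tumours 4, 13, 15 and 17, by mean deviations of -3.08, -2.89, -4.03 and -3.78. It also held HHIP, CLEC3B, ABI3BP, GPC3 and FGFR2. In the other 17 tumours its mean deviation was between -1.04 and 0.60. GHR, the growth hormone receptor, had a median of 10.07 and was 4.40 in tumour 17. Another 36 genes, led by IL27RA, LOC475806, HEBP2, TCIM and FKBP1B, moved the other way in the same tumours, by 3.37, 2.22, 2.37 and 3.72. Both clusters thus follow the 4 arrays that stood apart, and the part of RNA quality in them was not tested.

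Another cluster of 36 genes was led by KRT10, KRTDAP, KRT1, CALML5 and S100A2, genes of the differentiating epidermis. Its mean deviation was 6.45 in tumour 15, 2.06 in tumour 13 and at most 0.84 in the others. KRT10 had a median of 3.46 and was 12.07 in tumour 15. LY6D, a surface protein of stratified epithelium, had a median of 3.20, a next highest level of 4.04 and 11.04 in tumour 15. The same cluster held S100A9 and S100A8, calgranulins of neutrophils and stressed epidermis, CXCL8, a neutrophil chemokine, and IL6. S100A9 had a median of 4.86 and was 13.62 in tumour 15 and 8.82 in the next highest tumour.

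Each of the smaller clusters had its highest or lowest level in a tumour that stood apart, but not always in the same one. Cluster 8 was led by POSTN, SERPINF1, SFRP2, THBS2 and DPT, secreted proteins of fibroblasts, with a mean deviation of -5.35 in tumour 4 and -2.75 in tumour 18. DPT, dermatopontin, had a median of 11.05 and was 3.59 in tumour 4, and POSTN, periostin, had a median of 10.80 and was 4.24 there. Cluster 6 was led by DLA-DQA1 and DLA-DQB1, the canine MHC class II chains, with RIPOR2, LYZ and DLA-79, and ran from -1.90 in tumour 16 to 2.79 in tumour 15. Cluster 5, led by HSPB3, CORIN, ALDH1A2, ADAMDEC1 and CCL19, was highest in tumours 1, 20 and 7, at 2.75, 2.05 and 1.94. It was lowest in tumours 4, 17, 11 and 13, at -2.28, -2.24, -1.67 and -1.53. Cluster 4, led by ANKS1B, PRSS35, HSD17B14, RXRG and AQP8, was low in tumours 4, 13, 15 and 17 and also in tumour 2, at -2.08. Cluster 7, led by PIP, COX4I2, COMP, MPP6 and SPON1, was highest in tumours 4 and 13, at 4.91 and 3.66. Cluster 9 held the metallothioneins MT1E and MT2A with CCDC80, CPNE8 and PPL, and was lowest in tumours 4 and 17, at -4.81 and -2.47.

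Gene lists for tissues, cell types and processes were described next, by the spread and the co-variation of their members. The 21 lists had 373 measured members. Over all named genes the median SD was 0.33 and the median pairwise r 0.01. The interferon-stimulated list had a median SD of 0.999, with 11 of 22 members at an SD of at least 1, and a median pairwise r of 0.72. The proliferation list had a median SD of 0.68, with 5 of 37 members at an SD of at least 1, and a median r of 0.60. The macrophage list had a median SD of 0.76, with 2 of 22 members at an SD of at least 1, and a median r of 0.60. Without the tumours that stood apart these r were 0.78, 0.64 and 0.59.

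In other lists the co-variation came with those tumours. The keratinocyte list had a median r of 0.70, and 0.13 without them, and 13 of its 27 members had an SD of at least 1. In tumour 15, 21 of the 27 lay at least 2-fold above the median tumour, against 1091 of all 15115 named genes. The endothelial list went from 0.51 to 0.27, the B and plasma cell list from 0.53 to 0.30, the T and NK cell list from 0.41 to 0.19, the neutrophil list from 0.36 to 0.05, the mast cell list from 0.36 to 0.00 and the red cell and platelet list from 0.59 to 0.04. The highest tumour of these lists was 13 or 15. In tumour 13, 16 of the 23 endothelial genes lay at least 2-fold above the median tumour, against 728 of all 15115 named genes. The mean deviation of the endothelial genes there from their means over the tumours was 1.55. MMRN1, multimerin of lymphatic vessels and platelets, had a median of 3.47 and was 8.73 there, and CCL21, a chemokine of lymphatic vessels, had a median of 5.96 and was 11.58.

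Muscle, cartilage, bone, nerve and pigment cell lists gave little shared variation. The skeletal muscle list had a median SD of 0.30, no member of 28 with an SD of at least 1, and a median r of 0.19. The largest SD in it was that of TNNC1, a troponin, at 0.80. MYOD1, a master factor of muscle fate, stayed between 3.33 and 4.19. The cartilage list had a median SD of 0.48 and a median r of 0.09, with single members high in single tumours. ACAN, the proteoglycan aggrecan, had a median of 3.77, a next highest level of 3.99 and 6.72 in tumour 13. SOX9, a cartilage transcription factor, had a median of 4.69 and was 8.69 in tumour 4. The bone, Schwann cell and melanocyte lists had median r of 0.25, 0.05 and 0.25, with median SDs of 0.34, 0.37 and 0.28. S100B, a nerve sheath protein, was an exception within its list, with a lowest level of 3.11, a median of 5.34 and a highest of 9.77 in tumour 3.

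The adipocyte, osteoclast and hypoxia lists also held a few variable members among flat ones. The adipocyte list had a median SD of 0.31, with 5 of 17 members at an SD of at least 1 and a median r of 0.26. The osteoclast list had a median SD of 0.48 and a median r of 0.12, and MMP9, a gelatinase, ran from 4.23 in tumour 3 over 6.46 to 11.75 in tumour 14. The hypoxia list had a median SD of 0.62 and a median r of 0.13. SLC2A1, a glucose transporter, was high in a pair of tumours, with a median of 5.89 and levels of 9.56 in tumour 15 and 9.44 in tumour 4, and its SD fell from 1.17 to 0.34 without the tumours that stood apart.

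Fibroblast matrix genes varied strongly but less in step. Their median SD was 0.96, with 12 of 25 members at an SD of at least 1, and their median r was 0.30. In tumour 18, 11 of the 25 lay at least 2-fold below the median tumour and 0 above it, and in tumour 4, 9 below and 3 above. Of all 15115 named genes, 245 lay below and 179 above in tumour 18, and 798 below and 1148 above in tumour 4. Tumours 4 and 18 had the lowest mean deviations of this list from the members' means over the tumours, -1.04 and -0.93. Smooth muscle and pericyte genes had a median SD of 0.74 and a median r of 0.23. ACTA2, smooth muscle actin, ran from 6.43 in tumour 2 over 9.03 to 12.78 in tumour 14.

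To ask which genes moved together across the whole array, the level of each probe set was regressed on the level of 1 marker gene per theme with limma, and p was adjusted over all probe sets. The slope is the log2 difference of a gene for each log2 unit of the marker. The proliferation and the interferon-stimulated list kept their counts of called members without the tumours that stood apart. CDK1, the kinase that drives entry into mitosis, had a lowest level of 4.38 in tumour 14, a median of 5.89 and a highest of 8.01 in tumour 4. Tumours 4, 17, 19, 2 and 11 were the highest, at 8.01, 8.002, 7.79, 7.39 and 7.22, with a gap to 6.43 in the next.

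Of 36 other proliferation genes, 24 rose with CDK1 and 0 fell, while of all probe sets 0.638% rose and 0.0746% fell. KIF11, a mitotic spindle motor, ran from 3.44 in tumour 14 over 4.59 to 7.01 in tumour 17, and rose by 0.97 ± 0.069 (SE) per log2 unit of CDK1 (limma adjusted p = 1.14e-07). TOP2A, the topoisomerase that untangles replicated DNA, ran from 4.66 in tumour 14 over 6.45 to 8.89 in tumour 19, and rose by 1.01 ± 0.0902 (limma adjusted p = 1.16e-06). BUB1B, a spindle checkpoint kinase, rose by 0.88 ± 0.087 (limma adjusted p = 4.8e-06). Genes of DNA replication were in the group as well, with CDC6, which loads the replicative helicase, rising by 0.76 ± 0.0787. Outside the list, NUF2 of the kinetochore rose by 1.01 ± 0.0972, and NCAPG of condensin by 0.87 ± 0.0802. ARRB1, an arrestin of receptor signalling, fell by 0.31 ± 0.0585 (limma adjusted p = 0.00735), but with an adjusted p of 0.0957 without tumours 4, 13, 15 and 17.

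The count was 24 of 36 with tumours 4, 13, 15 and 17 left out and 24 of 36 with the spike-in group as a covariate. The total over the array was 306 probe sets, 235 without those 4 tumours, and 162 without tumour 17 alone. Tumour 17 had the highest mean deviation of the proliferation list from the members' means over the tumours, 1.41, followed by tumour 19 with 0.93.

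Interferon-stimulated genes formed the other group of this kind. MX1, an antiviral GTPase, had a lowest level of 6.33 in tumour 7, a median of 8.39 and a highest of 10.90 in tumour 4. Tumours 4, 11, 1 and 21 were the highest, at 10.90, 10.37, 10.01 and 9.57, and tumours 7, 10, 18 and 2 the lowest, at 6.33, 6.90, 7.03 and 7.06. Of 21 other members, 14 rose with MX1 and 0 fell, against 0.105% and 0.0% of all probe sets by limma, and 14 also rose without the tumours that stood apart and 13 with the spike-in group as a covariate.

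ISG15, a ubiquitin-like modifier, ran from 5.66 in tumour 10 over 7.78 to 10.34 in tumour 11, and rose by 1.04 ± 0.0921 per log2 unit of MX1 (limma adjusted p = 7.91e-06). IFI44L ran from 3.53 in tumour 2 over 6.65 to 8.98 in tumour 11, and rose by 1.07 ± 0.126 (limma adjusted p = 0.000111). USP18, which removes ISG15 from proteins, rose by 0.67 ± 0.067, and OAS1, a sensor of double-stranded RNA, by 0.72 ± 0.0969. OAS3 had a slope of 0.043 ± 0.0477 and did not pass the test. RNF213, outside the list, rose by 0.48 ± 0.0489 (limma adjusted p = 2.86e-05). The whole array had 45 such probe sets, and 2363 at an unadjusted p under 0.05. Between MX1 and CDK1 themselves Pearson's r was 0.22 (permutation p = 0.344, adjusted over 66 pairs 0.597) and rho 0.10 (permutation p = 0.665, adjusted 0.844), with r = 0.021 without the 2 tumours farthest from the median of MX1, 0.41 within the spiked and 0.12 within the unspiked arrays. For example, tumour 1 had a high MX1 of 10.01 and a low CDK1 of 5.03, and tumour 2 a low MX1 of 7.06 and a high CDK1 of 7.39.

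**Figure D2:**
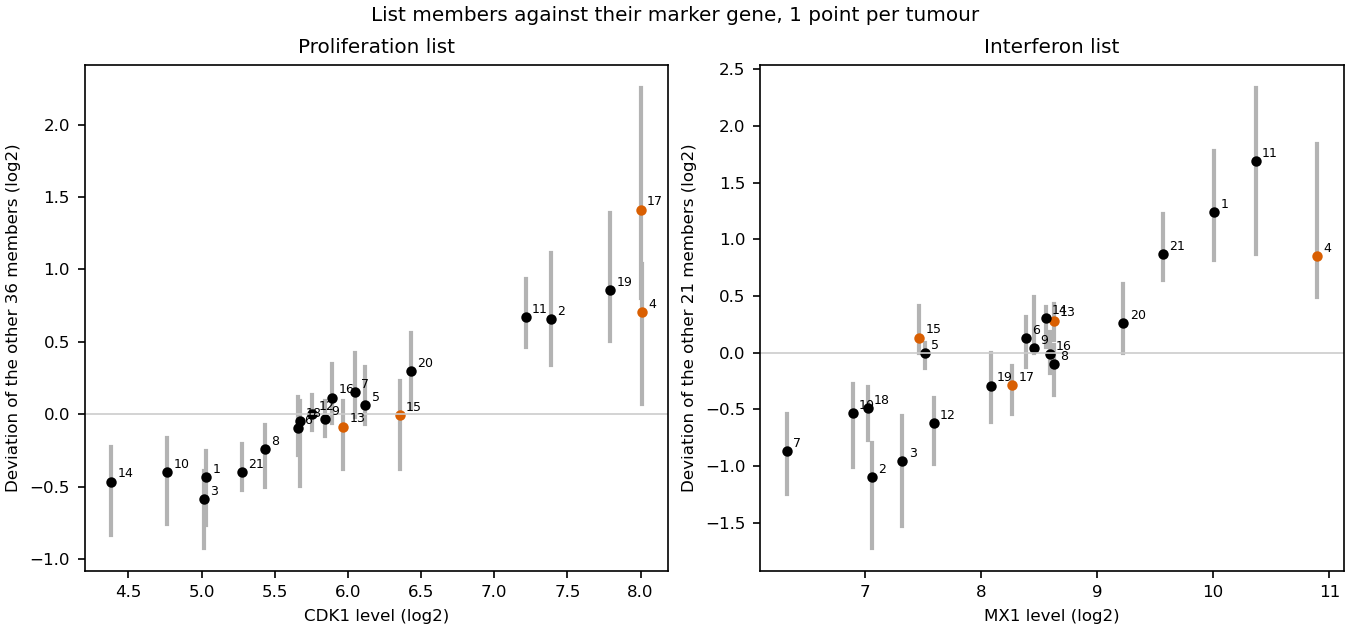
For each of the 21 tumours (numbered points), the median deviation of the other list members from the median tumour is plotted against the level of the marker gene, both on the log2 scale, for 36 proliferation genes against CDK1 and 21 interferon-stimulated genes against MX1. Grey bars span the quartiles of the members, and orange points are tumours 4, 13, 15 and 17. The medians rise with the marker in both panels. Of the orange points, tumours 4 and 17 have the highest CDK1 levels and tumour 4 has the highest MX1 level.

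Vessel genes moved with PECAM1, an adhesion protein of endothelium, but the count depended on tumour 13. PECAM1 ran from 6.74 in tumour 16 over 8.28 to 11.44 in tumour 13. Of 22 other endothelial genes 12 rose with it and 0 fell, against 1.02% and 1.15% of all probe sets. VWF, von Willebrand factor, rose by 0.77 ± 0.0804 (limma adjusted p = 6.99e-05) and ECSCR, an endothelial surface protein, by 0.79 ± 0.0781 (limma adjusted p = 5.59e-05). Without tumours 4, 13, 15 and 17, 2 endothelial genes passed, VWF with a slope of 0.54 (limma adjusted p = 0.028) and ECSCR with 0.50 (limma adjusted p = 0.0024). The whole array gave 929 probe sets, 27 without tumour 13, and 7 when the 3′ minus 5′ level entered as a covariate.

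Immune markers gave mixed results. CD163, a scavenger receptor of macrophages, ran from 6.23 in tumour 2 over 8.29 to 10.37 in tumour 5. No probe set passed the test with it (0 of 42920 in limma, 1976 at an unadjusted p under 0.05), so that 0.0% rose and 0.0% fell, and 0 of 21 macrophage genes were called. The macrophage genes closest to the threshold were C1QA, VSIG4 and CSF1R, with slopes of 0.56, 0.60 and 0.56 and limma adjusted p of 0.057, 0.057 and 0.0573. Without the tumours that stood apart 28 probe sets passed, among them VSIG4, CSF1R and MRC1 of the macrophage list, with adjusted p of 0.0168, 0.0295 and 0.0168.

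CD3E, of the T cell receptor complex, ran from 5.37 in tumour 3 over 6.34 to 7.26 in tumour 15. Of 26 other T and NK cell genes 6 rose with it and 0 fell, against 2.11% and 2.82% of all probe sets. CD2 rose by 0.97 ± 0.227 (limma adjusted p = 0.0241), CD3D by 1.57 ± 0.401 (limma adjusted p = 0.031) and GZMB, a killer cell protease, by 1.21 ± 0.296 (limma adjusted p = 0.0268). With the spike-in group as a covariate 12 of the 26 rose, and so did 17 of 27 keratinocyte, 9 of 22 macrophage and 7 of 23 endothelial genes. Of all 15114 other named genes, 1117 rose with this covariate and 355 without it. Without the tumours that stood apart 0 of the 26 passed, and the total fell from 2117 probe sets to 311. CD3D itself was at 7.26 in tumour 15, against a median of 4.12.

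The remaining markers followed single tumours or gave almost no calls. DSP, desmoplakin of epithelial junctions, had a median of 4.05, a next highest level of 5.51 and 8.88 in tumour 15. With it 21 of 26 other keratinocyte genes rose and 0 fell, against 10.5% and 9.19% of all probe sets. With DSP 16 of 27 T and NK cell, 6 of 10 B and plasma cell, 5 of 6 red cell and platelet and 4 of 7 mast cell genes rose as well. Without tumours 4, 13, 15 and 17 0 probe sets passed. MYH11, smooth muscle myosin, ran from 4.40 in tumour 2 over 6.40 to 9.96 in tumour 15. With it 7 of 17 smooth muscle and pericyte genes rose and 0 fell, against 7.04% and 7.17% of all probe sets, and 14 of 23 endothelial and 17 of 27 keratinocyte genes rose as well. Without those 4 tumours 0 probe sets passed. ACAN had 2 of 19 cartilage genes rising and 0 falling, against 3.42% and 1.54% of all probe sets, while 6 of 23 endothelial and 3 of 7 mast cell genes rose as well, and 0 probe sets passed without tumour 13.

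COL1A1 had 4 probe sets that rose and 0 that fell, or 0.00932% and 0.0%. Of 24 other matrix genes 1 was called, COL5A1, a chain of type V collagen, which rose by 0.90 ± 0.134 (limma adjusted p = 0.015), and had an adjusted p of 0.13 without the tumours that stood apart. COL3A1, a chain of type III collagen, had a slope of 0.47 ± 0.0814 and an adjusted p of 0.0585. ACTA1, skeletal muscle actin, stayed between 6.06 and 7.23, and with it 0 of 27 skeletal muscle genes and 0 of 42921 probe sets passed in limma, or 0.0% in each direction, with 1831 at an unadjusted p under 0.05. IBSP, bone sialoprotein, ran from 3.11 over 3.33 to 4.28 in tumour 15. It thus stayed below 5.91, the median of the gene means, in all tumours. With it 3 of 10 bone genes rose and 0 fell, against 10.3% and 4.92% of all probe sets. With IBSP 21 of 27 keratinocyte, 9 of 27 T and NK cell, 6 of 10 B and plasma cell and 4 of 6 red cell and platelet genes rose as well. SOX10, a nerve sheath and pigment cell factor, stayed between 5.53 and 6.48, and 1 of 13 Schwann cell genes rose with it and 0 fell, against 6.49% and 2.9% of all probe sets. With SOX10 17 of 27 keratinocyte and 5 of 10 B and plasma cell genes rose as well. The part of these other cell types in the calls was not tested. Leaving out tumours 4, 13, 15 and 17 left 3 probe sets with IBSP and 0 with SOX10, and 2 with COL1A1.

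**Figure D3:**
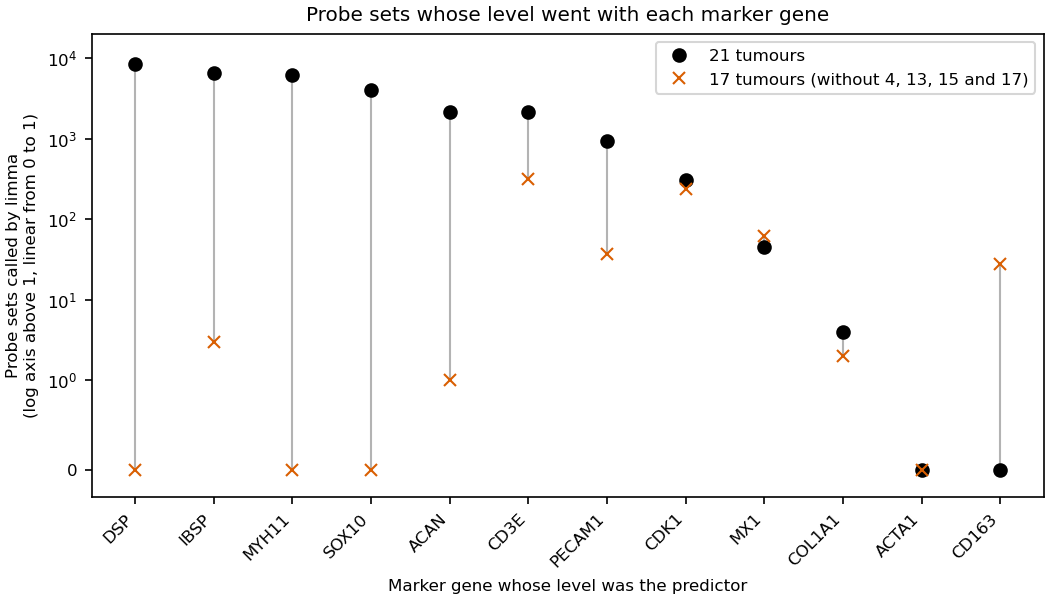
Number of probe sets whose level went with each marker gene at a limma adjusted p under 0.05, over all 21 tumours (dots) and over 17 tumours without tumours 4, 13, 15 and 17 (crosses), on an axis that is linear from 0 to 1 and logarithmic above. The crosses fall to 0 for DSP, MYH11 and SOX10, and stay near the dots for CDK1 (306 and 235) and MX1 (45 and 62).

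Between the 12 markers themselves few relations passed. Of 66 pairs, 1 had an adjusted permutation p under 0.05, IBSP with SOX10, 2 genes with a small spread. IBSP also had a low level, with a mean of 3.42 against a median of 5.91 for the means of all named genes. Over 20 tumours, without tumour 15 which lay far from the others in IBSP, Pearson's r was 0.75 (permutation p = 0.00011, adjusted over 66 pairs 0.00726) and Spearman's rho 0.71 (permutation p = 0.00058, adjusted 0.0383). Pearson's r was 0.67 without the 2 tumours farthest from the median of IBSP. It was 0.89 within the unspiked arrays and 0.09 within the 9 spiked arrays, so it did not hold within the spiked arrays. The pair passed with the means of the spike-in groups removed (r = 0.66, adjusted permutation p = 0.0348). It also passed without tumours 4, 13, 15 and 17 (r = 0.73, adjusted permutation p = 0.03). The adjusted permutation p was 0.0627, 0.0627 and 0.0528 without tumour 1, 2 or 7. The next pair was ACTA1 with IBSP, with r = 0.66 (permutation p = 0.00172, adjusted 0.0568) and rho = 0.67 (permutation p = 0.00197, adjusted 0.065) over the same 20 tumours. Its r was 0.58 without the 2 farthest tumours, 0.84 within the spiked and 0.60 within the unspiked arrays. It passed with the means of the spike-in groups removed (r = 0.64, adjusted permutation p = 0.0348) and without tumours 4, 13, 15 and 17 (r = 0.76, adjusted permutation p = 0.03). MYH11 and PECAM1 had r = 0.61 (permutation p = 0.00339, adjusted 0.0746) and rho = 0.48 (permutation p = 0.0287, adjusted 0.379), with r = 0.33 without the 2 tumours farthest from the median of MYH11, 0.72 within the unspiked and 0.38 within the spiked arrays. With the means of the spike-in groups removed it passed (r = 0.65, adjusted permutation p = 0.0348), and without tumours 4, 13, 15 and 17 r was 0.32 (adjusted permutation p = 0.457).

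Genes of known cancer loci did not vary in step. In the list of 15 genes often altered in sarcomas, the median pairwise r was 0.01, and 3 had an SD of at least 1, which were FGFR2, ATRX and MDM2. FGFR2, a fibroblast growth factor receptor, had a median of 11.26 and was 7.24 in tumour 13, 7.79 in tumour 17 and 8.02 in tumour 15, and its SD fell from 1.43 to 0.52 without the tumours that stood apart. MDM2, the ligase that holds p53 in check, had a lowest level of 8.54 in tumour 10, a median of 9.21 and a highest of 12.44 in tumour 17. Tumour 11 was at 12.06 and the next tumour at 10.55, so 2 tumours stood clear of the rest. They were on different kinds of array, with tumour 11 spiked and tumour 17 unspiked.

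The neighbours of MDM2 on chromosome 10 were high in the same 2 tumours. The order of genes was taken from the RefSeq annotation of the assembly UU_Cfam_GSD_1.0, and the arrays carry no positions of their own. A scan over the genome took the median deviation of 9 neighbouring genes with a median level of at least 6 in each tumour, over 7253 genes and 6941 windows, and the scan and its settings were chosen after the values of MDM2 were seen. The middle value of the absolute window deviation was 0.11, and 99.9% of windows lay within 1.31. In 4 of 819 pairs of a tumour and a chromosome a window went past 2. They were chromosome 10 in tumours 11 and 17, chromosome 11 in tumour 17 and chromosome X in tumour 12. A run began and ended at genes that deviated by at least 1 log2 unit in the direction of its window. Further neighbours were joined as long as they did so too. The counts of genes past 2-fold within a run therefore follow in part from this rule and are no test.

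On chromosome 10 the run of tumour 11 held 12 genes from CAND1 to CCT2 with a median level of at least 6. Of these, 10 lay at least 2-fold above the median tumour, and 11 had tumour 11 as the highest or second highest. The run of tumour 17 held 11 such genes from DYRK2 to CCT2, of which all 11 lay at least 2-fold above the median. Of all 15115 named genes, 429 lay at least 2-fold above the median tumour in tumour 11 and 860 in tumour 17. Over the genes of the first run the median deviation was 2.74 in tumour 11, 2.16 in tumour 17 and 0.46 in the next tumour. NUP107, of the nuclear pore, had levels from 6.70 to 8.23 in the other tumours and was 11.11 in tumour 11 and 10.89 in tumour 17. YEATS4, a reader of acetylated histones, had a median of 7.04 and was 10.58 and 10.34. FRS2, the adaptor of fibroblast growth factor receptors, had a median of 7.46 and was 10.74 and 9.79. CCT2, a subunit of the cytosolic chaperonin, had a median of 10.66 and was 13.21 and 12.49.

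The edges of the run differed between the tumours. GRIP1, a scaffold protein, was 10.40 in tumour 11, with 6.52 as the highest of the others, and 3.40 in tumour 17, the lowest of all. IL26, a cytokine, was 8.89 in tumour 11, with 5.17 as the highest of the others, and 3.01 in tumour 17. On the far side RAB3IP, CNOT2 and KCNMB4 were highest in tumour 17, at 8.10, 9.38 and 8.15. Between these edges IFNG and IL22 stayed low in both tumours, at 3.83 and 3.30 in tumour 11 and 3.65 and 3.62 in tumour 17. LYZ, lysozyme, which macrophages express, was 10.13 in tumour 11, near its median of 10.26, and 11.68 in tumour 17. CPSF6 had a median of 7.69 and was 8.24 in tumour 11 and 9.22 in tumour 17. CDK4, a cell cycle kinase on the same chromosome, ran from 9.08 over 10.25 to 11.59 in tumour 7 and was 10.21 in tumour 11 and 10.71 in tumour 17. Other probe sets of the genes in these runs were counted where their median level was at least 6. In the run of tumour 11, 12 of 14 also lay at least 2-fold above the median in tumour 11, and 11 of 13 did so for the run of tumour 17.

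Tumour 17 also had a run of low levels on chromosome 11. From PLIN2 to C11H9orf72 it held 8 genes with a median level of at least 6. Of these, 7 had their lowest level of all tumours in tumour 17. The median deviation was -2.70, against -0.89 in the next lowest tumour. MTAP, an enzyme of methionine salvage, was 5.17 in tumour 17, with 5.83 to 7.62 in the others. IFT74, of intraflagellar transport, was 3.47, with 5.63 to 8.30 in the others. PLAA was 6.33, with 8.23 to 9.31 in the others. MOB3B was 4.94, with 7.25 to 9.82 in the others. MLLT3, between PLIN2 and HACD4, did not share this and was 7.61, above its median of 7.24. CDKN2B, a cell cycle inhibitor next to MTAP, had a low level in all tumours, from 3.48 to 5.58, and was 3.49 in tumour 17. Other dimmer genes within the run were mixed in tumour 17. CAAP1 and TEK deviated from the median tumour by -1.06 and -0.97, and DENND4C and LOC611406 by -0.06 and 0.33. Among the other probe sets of the run's genes, 8 had a median level of at least 6, and 7 of these lay at least 2-fold below the median in tumour 17. Over the whole array, 844 of 15115 named genes lay at least 2-fold below the median tumour in tumour 17.

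The runs were not equally firm. Those of tumour 11 on chromosome 10 and of tumour 12 on chromosome X also went past 2 with windows of 7 or 15 genes and with a minimum level of 5 or 7. That of tumour 17 on chromosome 10 did so with windows of 7 genes and a minimum level of 5, and that on chromosome 11 only with windows of 7 genes.

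On chromosome X the run belonged to tumour 12, which in other respects was close to the rest, with a median r of 0.967. All 9 genes from FUNDC1 to USP11 with a median level of at least 6 lay at least 2-fold above the median tumour. Of these, 8 had their highest level in tumour 12. Dimmer genes between them were mixed in tumour 12. ZNF674 and RGN deviated from the median tumour by 2.02 and 1.07. DUSP21, DIPK2B, LOC491846, SLC9A7 and JADE3 deviated by -0.22, -0.13, 0.09, 0.39 and 0.83. The median deviation was 2.34, against 0.33 in the next tumour. KDM6A, a histone demethylase, was 9.98, with 6.60 to 8.02 in the others. UBA1, the enzyme that activates ubiquitin, was 12.38, with 9.03 to 10.51 in the others. NDUFB11, of respiratory complex I, was 11.05, with 8.47 to 9.35 in the others. After LOC403708, which stayed at 9.001, the pattern went on with ARAF, a kinase of the MAP kinase cascade, at 10.54 against at most 8.47 in the others, and with UXT at 10.15 against at most 8.65. CASK before the run and SLC38A5 after it were at 9.22 and 8.35, within the range of the others. Among the other probe sets of the run's genes, 8 had a median level of at least 6, and all 8 lay at least 2-fold above the median in tumour 12. Over the whole array, 176 of 15115 named genes lay at least 2-fold above the median tumour in tumour 12. DNA copy number was not measured on these arrays.

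The next windows in size differed in kind. In tumour 4, the window from NUP93 to MMP2 on chromosome 2 had a median deviation of -1.90, and it held the metallothioneins MT1E and MT2A. In tumour 15, a window from ABCA5 to CEP112 on chromosome 9 deviated by -1.60. Another from TGFB2 to BROX on chromosome 38 deviated by -1.57 in the same tumour. On chromosome 12, windows over the MHC region, between RNF5 and PSMB9, deviated by -1.70 in tumour 2 and by 1.68 in tumour 15, and that from DLA-DRA to DLA-DMB by -1.56 in tumour 10. There the levels formed a gradient over many tumours, with DLA-DQA1 running from 7.06 in tumour 10 over 10.16 to 12.13 in tumour 15.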

How the data were processed

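RNA of 21 sarcomas before treatment was measured on Affymetrix canine expression arrays, with 1 array for each tumour. The deposited values are log2 levels that the authors obtained with RMA in Affymetrix Expression Console, per the submitters' processing notes, which give no version. The values were used as deposited. Levels of different probe sets are not comparable, and precision depends on how many arrays there are.

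Of 43035 measured features, 111 controls were left out of the tests. Of 42924 probe sets, 29254 carry 1 gene symbol, 439 several and 13231 none in the platform annotation given, and 27680 matched the RefSeq table by gene identifier, with 0 symbols changed. Each of 15115 named genes was represented by the probe set with the highest mean over all 42 arrays. Probe sets whose names end in _s_at or _x_at can bind related genes.

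SD, median absolute deviation (times 1.4826) and deviation from the median tumour were computed with NumPy 2.4.6 and pandas 2.3.3. The mean deviation of a gene list was taken from the mean of each member over the tumours. Clusters joined genes by average linkage at r above 0.6 (SciPy 1.17.1). Slopes on a marker gene were fitted with limma 3.58.1 in R 4.3.3, with Benjamini-Hochberg adjustment over all probe sets and a threshold of 0.05. The fit was tried on simulated data with independent, normally distributed probe sets and a normally distributed marker. Those data do not cover correlated probe sets or a marker with an extreme tumour. Marker pairs were tested with 100000 two-sided permutations, and a marker's outlying tumour was left out where its gap exceeded 0.4 of the range.

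The genes named were the 30 with the largest SD, 10 with the largest median absolute deviation, each list's marker and 4 most variable members, 5 highest and 3 lowest correlates of each marker outside its list, 5 leading genes of each cluster, and the 8 flattest with a mean above the upper quartile. Genes outside this rule, such as those of the runs on chromosomes 10, 11 and X and some list members, were chosen after their values were seen. The subject, the 21 gene lists and the tests were chosen with earlier results of these data known. The alternative without tumours 4, 13, 15 and 17 and the scan of neighbouring genes were added after the data were seen.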

Additional observations from a re-analysis of the deposited data

How the results depend on the processing

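No paired analysis was made, because only the arrays before treatment were used. The counts of probe sets that went with a marker changed by over 1.5 times as follows. Without tumours 4, 13, 15 and 17 they were 0 for MYH11, DSP and SOX10, 1 for ACAN, 2 for COL1A1, 3 for IBSP, 28 for CD163, 37 for PECAM1 and 311 for CD3E, with 361 genes at an SD of at least 1 and 2 marker pairs called. Without the 2 tumours farthest in the marker they were 0 for MYH11, ACAN and SOX10, 2 for COL1A1, 8 for PECAM1, 13 for IBSP, 87 for CD3E, 152 for CDK1 and 3024 for DSP, with 0 pairs. With ranks of the marker they were 0 for MYH11, 26 for ACAN, 73 for PECAM1, 172 for CDK1, 255 for SOX10, 1650 for IBSP and 3195 for DSP. With the spike-in group as a covariate they were 0 for SOX10, 8 for COL1A1, 11 for CD163, 1101 for ACAN, 1741 for PECAM1, 3513 for IBSP and 6268 for CD3E. With the level at the 3′ minus the 5′ end as a covariate they were 1 for CD163, 7 for PECAM1, 178 for ACAN, 588 for CD3E, 1497 for MYH11 and 2262 for SOX10. With 1 probe set for each gene they were 6 for CD163, 26 for MX1, 157 for CDK1, 322 for PECAM1, 486 for ACAN, 960 for CD3E, 1158 for SOX10, 2159 for IBSP, 2221 for MYH11 and 3321 for DSP. Over probe sets above the median level they were 7 for COL1A1, 8 for CD163, 176 for CDK1, 330 for ACAN, 736 for SOX10, 2084 for IBSP, 5091 for DSP and 1030 for the spike-in groups. After renewed quantile normalisation they were 9 for CD163, 771 for ACAN, 1558 for IBSP, 1828 for PECAM1 and 3832 for CD3E, with 3 pairs. The selections of probe sets and the omissions of tumours test fewer features or samples; otherwise the cause was not tested.

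Leaving out each tumour in turn gave 0 to 0 probe sets for ACTA1, 52 to 8162 for MYH11, 0 to 3827 for ACAN, 253 to 8642 for IBSP, 27 to 3187 for PECAM1, 92 to 3125 for CD3E, 0 to 14 for CD163, 30 to 79 for MX1, 3930 to 9435 for DSP, 162 to 389 for CDK1, 2 to 8 for COL1A1, 0 to 5457 for SOX10 and 2154 to 3566 for the spike-in groups. The lowest count came without tumour 15 for MYH11, IBSP, CD3E, DSP and SOX10, without tumour 13 for ACAN and PECAM1, and without tumour 17 for CDK1. Genes with an SD of at least 1 numbered 621 to 789, and marker pairs called 0 to 2. By median absolute deviation 434 genes reached 1. With spike-in group means removed 3 pairs were called, and with 500 genes 21 clusters formed. The scan of neighbouring genes found 7 runs with windows of 7 genes, 2 with windows of 15 genes and 2 with a minimum level of 7. Of the SDs of single genes under the alternatives, 794 stayed within their spread and 44 moved, and IBSP with SOX10 lost its call without tumour 1, 2 or 7 (adjusted permutation p = 0.0627, 0.0627 and 0.0528), without the 2 farthest tumours (0.144) and after renewed quantile normalisation (0.0556). Signs of relations that were not called at first could turn: DSP and CDK1 had r = 0.25 over 20 tumours, -0.51 without the 2 farthest and -0.66 without tumours 4, 13, 15 and 17 (adjusted permutation p = 0.0584), and MYH11 and CD3E had r = 0.36, -0.05 and -0.02. Among called slopes, that of CXCL8 on IBSP went from 4.57 to -1.46 without those 4 tumours. The clusters and the scan of neighbouring genes were not computed without them.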
